A study of Sus scrofa with 12 samples.

Results

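The 9 transcription factors described here are the myogenic regulatory factors MYF5, MYOD1, MYOG and MYF6, the satellite cell factor PAX7, the MEF2 factors MEF2A, MEF2C and MEF2D, and SIX4. They were chosen by name, and all 9 were found among the 23271 genes of the deposited table. RNA came from the longissimus dorsi, a muscle along the spine, of Laiwu pigs, a Chinese breed known for fat-rich muscle, and of Yorkshire pigs, a lean Western breed, described as equal in weight. Each breed gave 6 libraries, called here Laiwu 1 to Laiwu 6 and Yorkshire 1 to Yorkshire 6, with no treatment, age or sex given in the labels. Whether the libraries of a breed are separate animals is not in the labels, and the p-values reflect only the spread among these samples, which may be technical. The comparison asks whether the factors that make and maintain muscle fibres differ in transcript level between the breeds.

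Skeletal muscle fibres arise when precursor cells switch on the myogenic regulatory factors, a family of basic helix-loop-helix proteins that bind E-box DNA together with E proteins. PAX7 marks the satellite cells, the resident stem cells that lie on adult fibres, and MYF5 and MYOD1 commit their progeny to the muscle lineage. MYOG drives the exit into differentiation, MYF6, also called MRF4, is the family member kept on in mature fibres, and the MEF2 proteins work with all of them on the promoters of contractile genes. SIX4 belongs to the sine oculis family of homeobox factors, which act upstream of the family in the embryo and in adult fibres.

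Libraries held 54961358 to 67285809 counts. Fibre genes dominated, as ACTA1, the skeletal alpha actin, averaged 41624 ± 6244 FPKM in the Laiwu libraries and 43899 ± 6523 FPKM in the Yorkshire ones (SD, n = 6 each). FPKM divides a count by the length of its gene and by the size of the library. Yorkshire 5 stood apart: across genes, its deviation from the mean library correlated with gene length at a Spearman's rho of -0.437, against -0.109 to 0.196 in the other 11 libraries. Log2 fold changes of single genes that move by over 1.5 times without it are given both ways. Of the marker lists for other cell types, the 5 tested adipocyte genes all had fitted log2 fold changes (Laiwu minus Yorkshire) above 0, with a median of 1.23. All 5 had an edgeR unadjusted p under 0.05, against 4.44% of all tested genes, and 0 passed adjustment. The summed FPKM of the list of 6 ran from 29.4 to 160.1 in Laiwu and from 20.7 to 58.7 in Yorkshire. The part of that difference in the values below was not tested. Fibro-adipogenic progenitor markers summed to 193.7 to 345.9 FPKM in Laiwu and 209.7 to 249.0 FPKM in Yorkshire, with 8 of the 9 above 0 and 1 below. Endothelial markers summed to 28.8 to 45.4 and 25.4 to 51.3 FPKM, with 4 of the 7 tested above 0 and 3 below. Of all tested genes, 5573 lay above 0 and 5632 below.

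None of the 9 factors passed the test for a difference between the breeds. By the quasi-likelihood test of edgeR, with p adjusted by Benjamini-Hochberg over 11205 genes, 0 of the 9 were called, and 0% of all tested genes. At an unadjusted p under 0.05 there were also 0 of 9, against 4.44% of all tested genes, or 498. That number was 281 without Laiwu 3 and 293 without Yorkshire 5. DESeq2 called 0 of the 9 as well, and 1 gene in all, CILP, with 568 genes at an unadjusted p under 0.05. The libraries of the breeds overlapped for each of the 9, where 0.17% of all tested genes showed no overlap. Of the 9, 5 had a fitted log2 fold change above 0 (Laiwu minus Yorkshire) and 4 below, with a median of 0.03, against 5573 above, 5632 below and a median of -0.0013 over all tested genes. The smallest edgeR adjusted p among the 9 was 0.912.

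**Figure D1:**
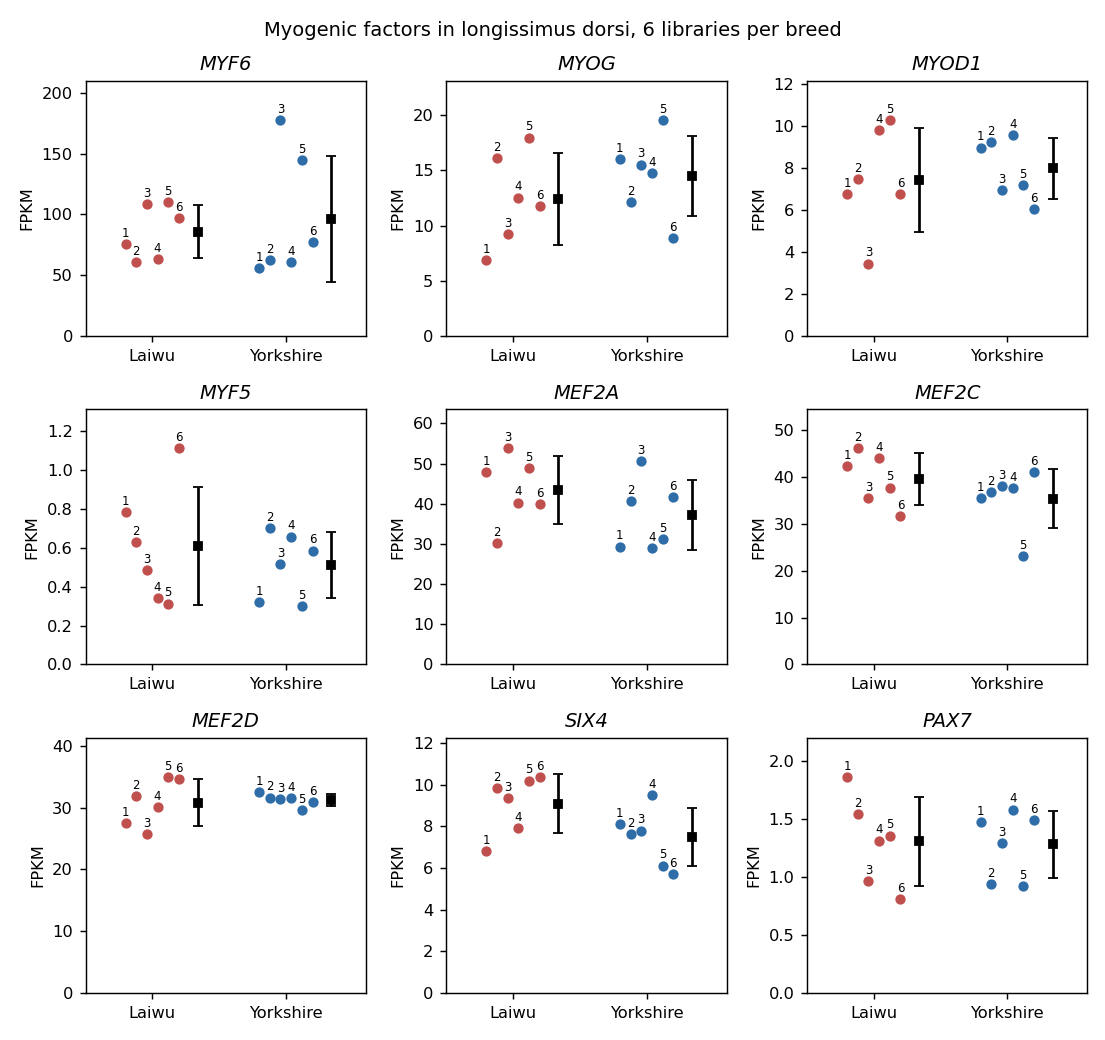
FPKM of each factor in every library, numbered by replicate, with Laiwu in red and Yorkshire in blue, and beside each breed the mean and SD (black square and bar, n = 6). The breeds overlap in all 9 panels, and MYF6 in Yorkshire 3 and 5, at 177.9 and 144.7 FPKM, stands highest of all.

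Ordered by mean FPKM over the 12 libraries, MYF6 came first at 91.2 ± 38.4, followed by MEF2A at 40.3 ± 8.81, MEF2C at 37.4 ± 6.05 and MEF2D at 31.0 ± 2.63 (SD, n = 12). MYOG followed at 13.4 ± 3.87 FPKM, then SIX4 at 8.27 ± 1.58, MYOD1 at 7.70 ± 1.95, PAX7 at 1.297 ± 0.323 and MYF5 at 0.561 ± 0.239 FPKM (SD, n = 12). MYF6 exceeded MEF2A, MEF2D exceeded MYOG, and MYOD1 exceeded PAX7 in 12 of 12 libraries. MYOG exceeded SIX4, and PAX7 exceeded MYF5, in 11 of 12. Neighbours that did not separate beyond their spread were MEF2A and MEF2C, with MEF2A higher in 8 of 12 libraries, and SIX4 and MYOD1, with SIX4 higher in 5 of 12. MEF2C exceeded MEF2D in 10 of 12. This order rests on the gene lengths. By count, MYF6 exceeded MEF2A in 0 of 12 libraries, MYOG exceeded SIX4 in 4 and MEF2C exceeded MEF2D in 5. MEF2A exceeded MEF2C by count in 9 of 12, and SIX4 exceeded MYOD1 in 3. MEF2D over MYOG, MYOD1 over PAX7 and PAX7 over MYF5 held by count in 12 of 12.

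The places of MYOD1 and MYOG in that order also depended on the gene model that gave the length. Count over FPKM implies a length of 8144 bases for MYOD1, 94.0% of its deposited locus, whereas the RefSeq gene of the same assembly, Sscrofa11.1, spans 1715 bases (chromosome 2, 41422522 to 41424236) inside that locus. For MYOG the implied length was 3762 bases against a RefSeq span of 2080 (chromosome 9, 113783233 to 113785312). If the same counts are divided by the RefSeq spans, MYOD1 averages 36.6 ± 9.30 and MYOG 24.3 ± 7.00 FPKM (SD, n = 12). MYOG then exceeds MYOD1 in 2 of 12 libraries in place of 12 of 12, with a median ratio of 0.663 in place of 1.74. This scaling was chosen after the data were seen, its spans include introns, and it leaves differences between breeds as they were, since 1 length serves all libraries. Its counts are those of the deposited loci, so any reads of MYOD1 and MYOG outside the RefSeq spans stay in them. The values thus mix the deposited and RefSeq gene models and may overstate both levels. The number of such reads was not tested.

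PAX7, the paired-box factor that maintains satellite cells (ENSSSCG00000034627; chromosome 6, 77161097 to 77267415, plus strand), ran in Laiwu from 0.810 FPKM in Laiwu 6 through a median of 1.34 to 1.86 FPKM in Laiwu 1. In Yorkshire it ran from 0.921 FPKM in Yorkshire 5 through 1.38 to 1.58 FPKM in Yorkshire 4. The Yorkshire range lay inside the Laiwu range. Means were 1.31 ± 0.383 and 1.28 ± 0.288 FPKM (SD, n = 6 each), and the log2 fold change was 0.03 (95% interval -0.44 to 0.49, edgeR adjusted p = 0.991). Its sign turned with the library left out, to -0.12 without Laiwu 1, -0.03 without Laiwu 2, -0.03 without Yorkshire 2, -0.0049 without Yorkshire 3 and -0.04 without Yorkshire 5. In bulk muscle, the number of satellite cells and the PAX7 RNA in each cell cannot be told apart.

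MYF5, the earliest factor of the family in the embryo and present in satellite cells (ENSSSCG00000000937; chromosome 5, 100752890 to 100755494, minus strand), was the scarcest of the 9, with 27 to 88 counts per library. It ran from 0.312 FPKM in Laiwu 5 through a median of 0.557 to 1.11 FPKM in Laiwu 6, and from 0.299 FPKM in Yorkshire 5 through 0.551 to 0.700 FPKM in Yorkshire 2. Laiwu 6 stood highest, with 88 counts (exact Poisson 95% interval 70.6 to 108.4), and Yorkshire 5 lowest, with 27 counts (17.8 to 39.3). The coefficient of variation was 49.7% within Laiwu and 33.0% within Yorkshire, where counting error alone gives 13.5% and 14.9%. The log2 fold change was 0.22 (95% interval -0.53 to 0.97, edgeR adjusted p = 0.942), turning to -0.02 without Laiwu 6 and standing at 0.11 when Yorkshire 5 was left out. MYF5 and MYF6 are neighbours on the minus strand of chromosome 5, with 7423 bases between the deposited loci, and MYF6 averaged 91.2 FPKM to the 0.561 FPKM of MYF5.

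MYOD1, which commits cells to muscle and is known to be kept at a higher level in fast fibres (ENSSSCG00000013375; chromosome 2, 41415775 to 41424435, minus strand), ran from 3.45 FPKM in Laiwu 3 through a median of 7.12 to 10.3 FPKM in Laiwu 5. The Yorkshire libraries lay between, from 6.03 FPKM in Yorkshire 6 through 8.07 to 9.56 FPKM in Yorkshire 4. Laiwu 3 alone lay below the Yorkshire range, and Laiwu 4 and 5 lay above it. The coefficient of variation was 33.3% in Laiwu and 18.2% in Yorkshire. Its log2 fold change was -0.12 (95% interval -0.61 to 0.37, edgeR adjusted p = 0.952), and 0.03 without Laiwu 3.

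SIX4, a homeobox partner of EYA proteins in switching on the myogenic genes (ENSSSCG00000005089; chromosome 1, 189670390 to 189682577, minus strand), had the smallest p of the 9. It ran from 6.81 FPKM in Laiwu 1 through a median of 9.59 to 10.4 FPKM in Laiwu 6, and from 5.70 FPKM in Yorkshire 6 through 7.71 to 9.50 FPKM in Yorkshire 4. Laiwu 2, 5 and 6 lay above every Yorkshire library, and Yorkshire 5 and 6 lay below every Laiwu library. Means were 9.08 ± 1.42 and 7.47 ± 1.39 FPKM (SD, n = 6 each), with a log2 fold change of 0.26 (95% interval -0.0044 to 0.53, unadjusted p = 0.0534, edgeR adjusted p = 0.912). SIX4 was lowest in Yorkshire 6, Yorkshire 5 and Laiwu 1, 3 of the 4 libraries whose trend with gene length fell below 0. Its level had an r of 0.717 with that trend (n = 12, breed means removed), and the part of the trend in the SIX4 values was not tested. With the trend of each library with gene length removed, the log2 fold change was 0.20 (unadjusted p = 0.0825, edgeR adjusted p = 0.988).

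MYOG, the differentiation factor myogenin, known to be higher in slow than in fast muscle and to rise after loss of the nerve (ENSSSCG00000034654; chromosome 9, 113782284 to 113787340, minus strand), ran from 6.87 FPKM in Laiwu 1 through a median of 12.1 to 18.0 FPKM in Laiwu 5. In Yorkshire it ran from 8.90 FPKM in Yorkshire 6 through 15.1 to 19.6 FPKM in Yorkshire 5. The ranges overlapped except for Laiwu 1 at the bottom and Yorkshire 5 at the top. Means were 12.4 ± 4.14 and 14.5 ± 3.64 FPKM (SD, n = 6 each), and the log2 fold change was -0.24 (95% interval -0.73 to 0.24, edgeR adjusted p = 0.918). It was -0.11 without Yorkshire 5 and -0.13 without Laiwu 1.

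MYF6, the family member of mature fibres (ENSSSCG00000026533; chromosome 5, 100762917 to 100764773, minus strand), varied most between the Yorkshire libraries. They ran from 55.8 FPKM in Yorkshire 1 through a median of 69.7 to 177.9 FPKM in Yorkshire 3, with Yorkshire 5 next at 144.7 FPKM. Both lay above every Laiwu library, the other 4 Yorkshire libraries lay at 77.0 FPKM or less, and 2 of these lay below every Laiwu library. Laiwu ran from 61.1 FPKM in Laiwu 2 through 86.3 to 110.0 FPKM in Laiwu 5. The coefficient of variation was 53.7% in Yorkshire and 25.7% in Laiwu, where counting error gives 1.11% and 1.15%. The log2 fold change was -0.18 (95% interval -0.79 to 0.44, edgeR adjusted p = 0.943), and it turned to 0.02 without Yorkshire 3 and to 0.0065 without Yorkshire 5. MYF6 has an implied length of 1374 bases, and its level had an r of -0.542 with the length trend of the libraries (n = 12). The rho of that trend was -0.437 in Yorkshire 5 but -0.018 in Yorkshire 3. With the trend of each library with gene length removed, the log2 fold change of MYF6 was -0.044. The part of the trend in the MYF6 values was not tested.

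Within the family, MYF6 made up most of the summed FPKM in every library. Its share ran from 71.6% through a median of 81.3% to 89.2% in Laiwu and from 68.8% through 78.6% to 88.6% in Yorkshire. MYOG took 7.61% to 18.9% in Laiwu and 7.73% to 19.7% in Yorkshire, MYOD1 2.84% to 11.4% and 3.45% to 11.2%, and MYF5 less than 1% throughout. With the RefSeq spans as lengths, the MYF6 share was lower, at 51.3% ± 11.8 (SD, n = 12) in place of 79.2% ± 7.14, and it ran from 36.6% to 70.6%. That share rests on the same mix of deposited counts and RefSeq spans, which may overstate MYOD1 and MYOG.

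**Figure D2:**
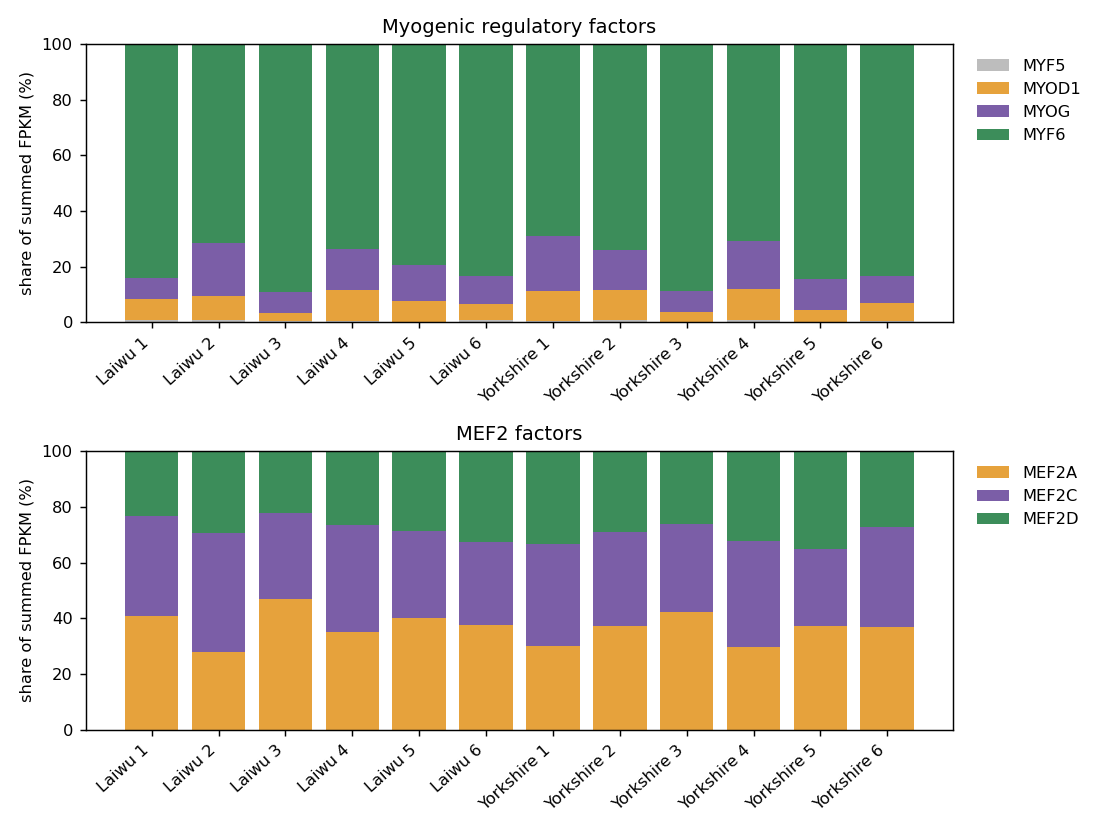
Share of each gene in the summed FPKM of its family (percent), per library, for the 4 myogenic regulatory factors (top) and the 3 MEF2 factors (bottom). MYF6 holds 68.8% to 89.2% of the first sum, while the MEF2 genes divide theirs more evenly.

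The 3 MEF2 genes, MADS-box factors that bind with the myogenic regulatory factors and respond to calcium and class II histone deacetylases, lay close together in level. MEF2A (ENSSSCG00000028771; chromosome 1, 138341158 to 138511314, plus strand) ran from 30.2 FPKM in Laiwu 2 through a median of 44.1 to 53.8 FPKM in Laiwu 3, and from 29.1 FPKM in Yorkshire 4 through 36.0 to 50.7 FPKM in Yorkshire 3. Only Laiwu 3 lay above the Yorkshire range, and 2 Yorkshire libraries lay below the Laiwu range. The log2 fold change of MEF2A was 0.21 (95% interval -0.14 to 0.56, edgeR adjusted p = 0.912).

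MEF2C (ENSSSCG00000014149; chromosome 2, 96124168 to 96296810, minus strand) ran from 31.7 FPKM in Laiwu 6 through a median of 40.0 to 46.1 FPKM in Laiwu 2, and from 23.1 FPKM in Yorkshire 5 through 37.2 to 41.0 FPKM in Yorkshire 6. Yorkshire 5, the library with the strong length trend, stood alone at the bottom, the other 5 Yorkshire libraries lay at 35.4 FPKM or more, and 3 Laiwu libraries lay above all of them. The log2 fold change was 0.15 (95% interval -0.16 to 0.46, edgeR adjusted p = 0.918) with Yorkshire 5 and 0.06 without it. A short gene on the same strand, ENSSSCG00000050823 (chromosome 2, 96124053 to 96124560, protein coding), overlaps the end of the MEF2C locus at a mean of 3.19 FPKM, so the division of reads between them is uncertain there.

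MEF2D (ENSSSCG00000006482; chromosome 4, 93581598 to 93616983, plus strand) was the steadiest of the 9. It ran from 25.7 FPKM in Laiwu 3 through a median of 31.0 to 35.0 FPKM in Laiwu 5, and from 29.6 FPKM in Yorkshire 5 through 31.5 to 32.5 FPKM in Yorkshire 1. All 6 Yorkshire libraries lay inside the Laiwu range. The coefficient of variation was 3.07% in Yorkshire and 12.2% in Laiwu, and the biological coefficient of variation that edgeR estimated stood at percentile 5.31 of all tested genes. That percentile was 22.9 for SIX4, 36.3 for MEF2C, 48.0 for MEF2A, 72.4 for PAX7, 72.5 for MYOG, 73.3 for MYOD1, 85.0 for MYF6 and 91.1 for MYF5. The log2 fold change of MEF2D was -0.04 (95% interval -0.25 to 0.17, edgeR adjusted p = 0.967), and 0.01 without Laiwu 3.

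Together the MEF2 genes summed to 113.9 ± 5.77 FPKM in Laiwu against 103.7 ± 13.1 in Yorkshire (SD, n = 6 each), and the Yorkshire mean was 107.7 ± 9.86 FPKM (SD, n = 5) without Yorkshire 5, whose sum was 83.9. MEF2A held 38.1% ± 6.31 of that sum in Laiwu and 35.5% ± 4.82 in Yorkshire, MEF2C 34.8% ± 5.10 and 33.9% ± 3.90, and MEF2D 27.2% ± 3.89 and 30.5% ± 3.64, each difference smaller than its SD.

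**Figure D3:**
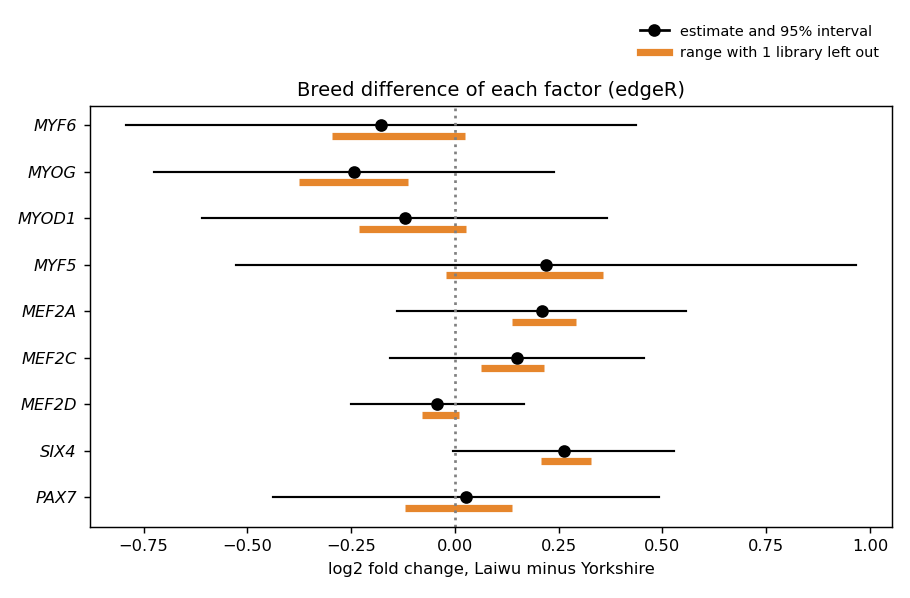
edgeR log2 fold change of each factor, Laiwu minus Yorkshire (x axis), with its 95% interval (black) and the range of the estimate when 1 library is left out (orange). All 9 intervals include 0, that of SIX4 by the smallest margin (-0.0044), and the interval of MYF5, the gene with fewest counts, is the widest.

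Ratios between related factors within a library do not depend on how libraries are scaled, and 5 were compared by a two-sided exact permutation test over the libraries. The trend of a library with gene length, however, does not cancel in a ratio of genes that differ in length. No ratio was run with that trend removed. The log2 ratio of MYOG to MYOD1 was 0.75 ± 0.50 in Laiwu and 0.84 ± 0.40 in Yorkshire (SD, n = 6 each; exact permutation p = 0.745, 0.786 adjusted over the 5 ratios). The difference of -0.09 turned to 0.06 without Laiwu 1 and to 0.03 without Yorkshire 5. That of MYF6 to MYOG was 2.82 ± 0.64 and 2.62 ± 0.66 (exact permutation p = 0.589, adjusted 0.786). MEF2D to MEF2A gave -0.48 ± 0.41 and -0.22 ± 0.33 (exact permutation p = 0.253, adjusted 0.786). MEF2C to MEF2A gave -0.12 ± 0.43 and -0.06 ± 0.34 (exact permutation p = 0.786, adjusted 0.786), and MYF5 to PAX7 -1.19 ± 0.92 and -1.36 ± 0.57 (exact permutation p = 0.703, adjusted 0.786). None of the 5 differed between the breeds beyond the spread between libraries. In single libraries the ratio of MYOG to MYOD1 ran from 1.02 in Laiwu 1 to 2.73 in Yorkshire 5. That of MYF5 to PAX7 ran from 0.219 in Yorkshire 1 to 1.37 in Laiwu 6, the only library with MYF5 above PAX7 in FPKM. By count PAX7 exceeded MYF5 in 12 of 12 libraries, so that crossing depended on the implied lengths, 1431 bases for MYF5 and 4772 for PAX7.

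The factors did not move as 1 group from library to library. Of the 36 pairs, 18 had a Pearson's r above 0 and 18 below, with a median of -0.01, after breed means were removed from log2 CPM (counts scaled to a common library size, with a prior of 0.5). The largest values were 0.767 for MYOD1 and MEF2D and 0.733 for PAX7 and MEF2C, and the lowest was -0.643 for MYF6 and MEF2C, over 12 libraries. All genes of a library share its depth and scaling. The r values are descriptions, without a test.

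**Figure D4:**
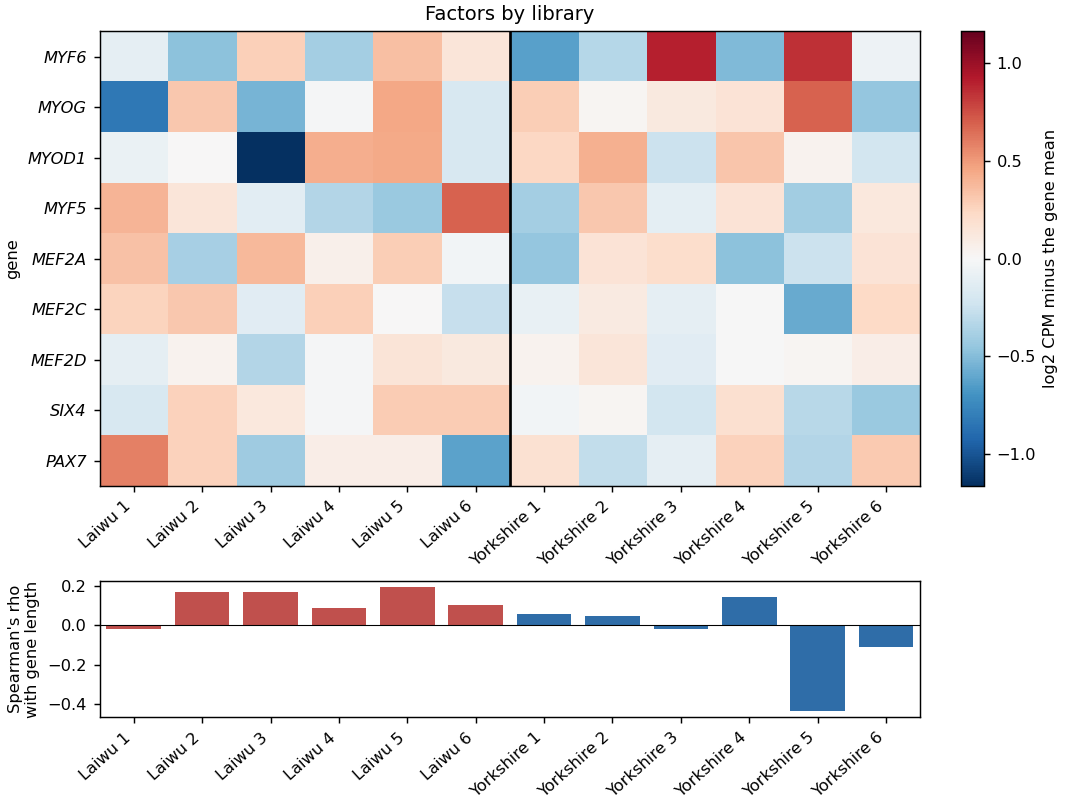
Level of each factor in every library as log2 CPM minus the mean of the gene over the 12 libraries (colour), with Laiwu left of the line and Yorkshire right of it, and below, the Spearman's rho of the library's deviation with gene length. MYF6 is highest in Yorkshire 3 and 5, MYOD1 lowest in Laiwu 3 and MYOG lowest in Laiwu 1.

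Of 10 relations tested by permutation within breeds (100000 resamples, two-sided), 0 passed adjustment over the 10. The one with the smallest p joined MYOG to MYH7, the slow myosin heavy chain, which ran from 275.6 FPKM in Laiwu 1 to 1321 FPKM in Laiwu 5. Their r was 0.625 (permutation p = 0.0663, adjusted 0.373) and Spearman's rho 0.580 (permutation p = 0.0820, adjusted 0.436). It was 0.717 within Laiwu and 0.494 within Yorkshire, and 0.187 without Laiwu 1 and 5, the libraries farthest from the median of MYOG. For MYOD1 and MYH7, r was -0.05 (permutation p = 0.913, adjusted 0.913) and rho -0.03 (permutation p = 0.931, adjusted 0.991), with -0.02 within Laiwu and -0.37 within Yorkshire, and -0.30 without Laiwu 3 and 5.

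MYOD1 and MYOG had an r of 0.499 (permutation p = 0.149, adjusted 0.373) and a rho of 0.503 (permutation p = 0.128, adjusted 0.436). The value was 0.587 within Laiwu, 0.288 within Yorkshire and 0.270 without Laiwu 3 and 5. For MYF6 and MYOD1, r was -0.418 (permutation p = 0.101, adjusted 0.373) and rho -0.455 (permutation p = 0.131, adjusted 0.436), with -0.369 within Laiwu, -0.689 within Yorkshire and -0.404 without Yorkshire 3 and 5. SIX4 and MYOG had an r of 0.467 (permutation p = 0.141, adjusted 0.373) and a rho of 0.392 (permutation p = 0.234, adjusted 0.585), which was 0.735 within Laiwu, 0.179 within Yorkshire and -0.08 without Laiwu 1 and Yorkshire 6. The other 5 relations, among the MEF2 genes, between MYF5 and PAX7 and between MYF6 and MYOG, had r between -0.283 and 0.133 and permutation p from 0.385 to 0.855.

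**Figure D5:**
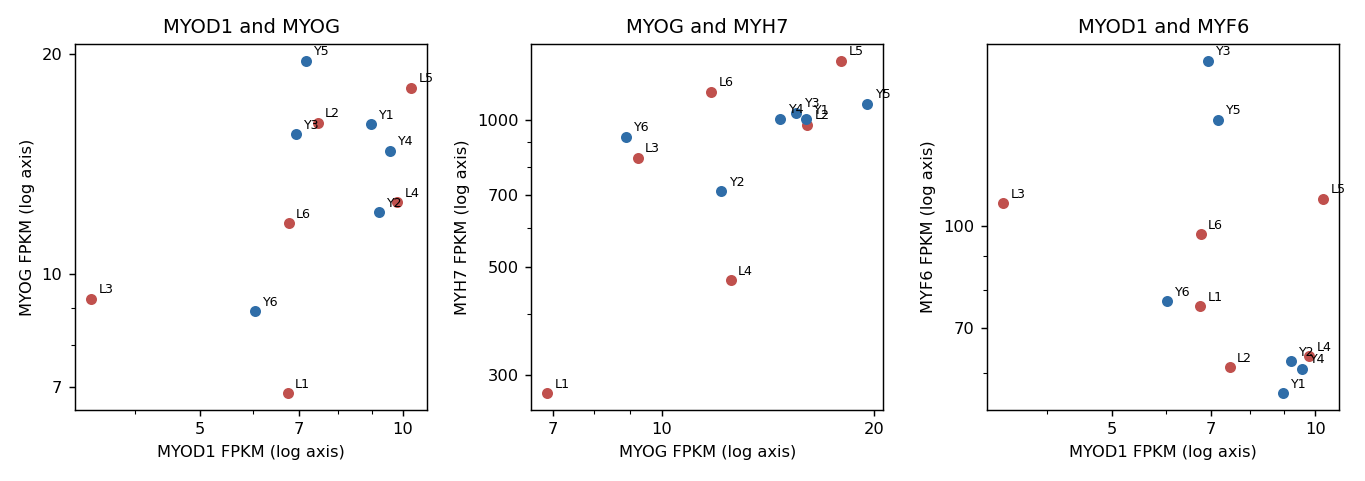
FPKM of MYOG against MYOD1 (left), MYH7 against MYOG (middle) and MYF6 against MYOD1 (right) on log axes, with 1 point per library (L, Laiwu in red; Y, Yorkshire in blue). Laiwu 1 is lowest in both MYOG and MYH7, at 6.87 and 275.6 FPKM, and Laiwu 3 is lowest in MYOD1.

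The genes whose level followed each factor most closely over the 12 libraries, by Pearson's r of breed-centred log2 CPM, are given as a description. They were picked by that r, so sharing the lowest or highest library of a factor follows from the choice. MYF6 was followed most closely by ZNF668, a zinc finger gene (r = 0.975), and DEPP1, a target of FOXO factors (r = 0.972). MYOD1 was followed by TLE4, a Groucho-type corepressor (r = 0.956), which was lowest in Laiwu 3 as MYOD1 was, at 2.97 FPKM, and by KCTD15 (r = 0.884). MYOG was followed by ENSSSCG00000044722, a long noncoding RNA on another chromosome (chromosome 13, 75843255 to 75845028, plus strand; r = 0.952), and by EGLN3, an oxygen-sensing prolyl hydroxylase (r = 0.916). That noncoding RNA ran from 0.793 FPKM in Laiwu 1 to 31.3 FPKM in Yorkshire 5, the same libraries in which MYOG was lowest and highest. For SIX4 the 2 genes were ZNF786 and EXO5 (r = 0.937 and 0.915), for MEF2A ACSS1 and EIF3A (0.928 and 0.925), for MEF2C NLRC5 and ENSSSCG00000024021 (0.914 and 0.911) and for MEF2D ENSSSCG00000003521 and CDC7 (0.885 and 0.868). For PAX7 they were SLC38A9 and ATP2C1 (0.881 and 0.879), and for MYF5 FAM110B and PHYHD1 (0.872 and 0.865). No other of the 9 factors was among the 2 closest genes of any factor.

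The other genes of the network, taken from 4 lists chosen for their roles, held 0 members past the threshold in either direction by edgeR. Of all tested genes 0% passed it, so this 0 is no result about the lists. Of the partners and inhibitors of the myogenic factors, such as E proteins, ID proteins and class II histone deacetylases, 15 of 19 were tested, with 7 above 0, 8 below and a median log2 fold change of -0.01. ID3, which keeps E proteins from the myogenic factors, was the most abundant with 14.1 ± 1.36 FPKM in Laiwu against 16.0 ± 3.60 in Yorkshire (SD, n = 6 each), followed by the repressor ZEB1 at 11.7 ± 1.29 and 10.6 ± 3.61 FPKM. The smallest p in this list belonged to the E protein gene TCF12, with a log2 fold change of 0.17 ± 0.12 (SE), and ID3, with -0.19 ± 0.13, each at an edgeR adjusted p of 0.912. Without Yorkshire 5 these were 0.09 and -0.12.

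Of the other upstream and partner factors, 24 of 30 were tested, with 10 above 0, 14 below and a median of -0.03. SMYD1, a muscle methyltransferase, averaged 130.4 ± 15.1 FPKM in Laiwu against 117.3 ± 35.0 in Yorkshire, and NFIX, a factor of the fetal muscle programme, at 62.7 ± 10.3 and 59.5 ± 16.2 FPKM (SD, n = 6 each). TEAD2 and TEAD3, which bind with YAP and VGLL cofactors, had log2 fold changes of -0.18 ± 0.09 and -0.40 ± 0.22 (SE), each at an edgeR adjusted p of 0.912, and that of TEAD3 was -0.26 without Yorkshire 5. Among satellite cell surface and niche genes, 15 of 19 were tested, with 10 above 0, 5 below and a median of 0.14. ITGA7, the integrin of fibres and satellite cells, was at 49.1 ± 8.00 and 52.6 ± 7.96 FPKM. CAV1, which is also a gene of endothelial and fat cells, averaged 40.4 ± 13.4 FPKM in Laiwu against 29.7 ± 8.40 in Yorkshire, a log2 fold change of 0.43 ± 0.20 (SE), and SPRY1, a brake on growth factor signals in quiescent satellite cells, had 0.28 ± 0.15, each at an edgeR adjusted p of 0.912.

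Known targets of the factors had 19 of 23 members tested, with 6 above 0, 13 below and a median log2 fold change of -0.15. CKM, the muscle creatine kinase, was the most abundant with 9120 ± 926.9 FPKM in Laiwu against 9506 ± 901.0 in Yorkshire, and ENO3, the muscle enolase, was at 6050 ± 977.9 and 6470 ± 1143 FPKM (SD, n = 6 each). In this list 3 of the 19 had an edgeR unadjusted p under 0.05, against 4.44% of all tested genes. These were CHRNE, ACTC1 and MYH3, ACTC1 being named after its value was seen, and 0 of them passed adjustment over all genes.

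CHRNE, the adult subunit of the acetylcholine receptor at the neuromuscular junction, ran from 0.201 to 1.83 FPKM in Laiwu and from 0.834 to 4.31 FPKM in Yorkshire, a log2 fold change of -1.35 ± 0.50 (SE, edgeR adjusted p = 0.912). The locus of CHRNE (chromosome 12, 52011250 to 52016299, plus strand) holds C17orf107 (52012775 to 52014886) on the other strand, at a mean of 0.208 FPKM. MINK1 (52016299 to 52066693), also on the other strand, meets the end of the CHRNE locus, at a mean of 7.04 FPKM. Where these loci overlap that of CHRNE, reads cannot be told apart if counting ignored the strand. MYH3, the embryonic myosin heavy chain, ran from 69.7 to 99.8 FPKM in Laiwu and from 24.1 FPKM in Yorkshire 5 to 73.5 FPKM in Yorkshire 6, a log2 fold change of 0.59 ± 0.25 (SE, edgeR adjusted p = 0.912). The myosin heavy chain genes of this cluster are closely similar, which makes the division of reads among them uncertain. ACTC1, the cardiac alpha actin, close in sequence to ACTA1, ran from 5.78 to 15.9 FPKM in Laiwu and from 6.45 to 30.1 FPKM in Yorkshire, a log2 fold change of -0.86 ± 0.37 (SE, edgeR adjusted p = 0.912).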

How the data were processed

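Per the labels' protocols, poly(A) RNA was read on a NovaSeq. Alignment by the authors used HISAT2 2.2.1 and the assembly Sscrofa11.1, per the series' design text. Other tools in the submitters' processing notes, with no role stated, are StringTie 1.3.4d, cutadapt 1.9, edgeR and DESeq2. For each gene the authors deposited counts and FPKM values of all 12 libraries, per the file headers. Whether counting used the strand is not stated in these sources.

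The test covered 11205 genes whose FPKM averaged 0.5 or more (12066 left out), and all 9 factors passed, which says nothing of their difference. The test was edgeR 4.0.16 (quasi-likelihood, TMM, robust, no covariate) on the deposited counts. It was also run on simulated counts, with changes larger than those fitted for the 9 factors. That run does not show whether differences of their size would be called. An adjusted p under 0.05 was called, and the SE was derived from F and the fold change. limma 3.58.1, DESeq2 1.42.0 and R 4.3.3 gave alternatives, and Python 3.11.15 the ratios, relations and figures (matplotlib 3.10.9). The members, lists, tests and the rule for named genes were chosen with earlier results of these data known. Of each list the rule took members past the threshold, or else the 2 of highest mean FPKM and the 2 of smallest p, and for each factor the 2 genes of highest r. Library totals were 54961358 to 67285809 counts, a precision in which mean counting error is under 2% for factors other than PAX7 and MYF5. Alternatives were other tests, scalings, filters, pseudocounts, a replicate block and each library left out. Added after the data were seen were removal of the length trend and RefSeq gene spans and family sums without Yorkshire 5. RefSeq spans come from the Sscrofa11.1 gene table. No sequence was used here. No library pair agreed within sampling noise.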

Additional observations from a re-analysis of the deposited data

Results flagged for a closer look

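MEF2C in Yorkshire 5, at 23.1 FPKM, lay far below the other 5 Yorkshire libraries: the gap to the nearest was 0.690 of the whole range, where 0.625 is the critical value for 6 samples. Chance flags about 1 in 20 such groups, and 28 groups were examined. The same library had a Spearman's rho of -0.437 between its deviation and gene length across genes, and MEF2C has an implied length of 5410 bases. The part of that trend in the MEF2C value was not tested.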

How the results depend on the processing

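No factor was called under any alternative that was run. The count of all called genes was 0 under each but DESeq2, which called 1. Left out in turn, the libraries moved the log2 fold change of PAX7 from -0.12 to 0.14, MYF5 from -0.022 to 0.36, MYOD1 from -0.23 to 0.028, MYF6 from -0.30 to 0.023 and MEF2D from -0.079 to 0.011, while MYOG (-0.38 to -0.11), MEF2A (0.14 to 0.29), MEF2C (0.063 to 0.21) and SIX4 (0.21 to 0.33) kept their sign. For SIX4 the edgeR unadjusted p lay under 0.05 without Laiwu 1, Laiwu 4, Yorkshire 2 or Yorkshire 4 (0.0212, 0.0468, 0.0484 and 0.0192). Without any 1 of the other libraries it rose above the 0.0534 of the full set, from 0.0597 (Yorkshire 1) to 0.122 (Yorkshire 6). The limma unadjusted p of SIX4 with voom weights was 0.148. With voom weights PAX7 was at -0.088, MYF6 at 0.20, MYOD1 at -0.24, MEF2C at 0.095, MEF2D at -0.066, TEAD3 at -0.17, TCF12 at 0.10, ID3 at -0.12 and CAV1 at 0.28. With the length trend removed PAX7 was at -0.0054, MYF6 at -0.044, MYOD1 at -0.21, MEF2D at -0.12, TCF12 at 0.070, ID3 at -0.064 and SPRY1 at 0.13. With the replicate block added to that, PAX7 was at -0.044, MYF6 at 0.027 and MYOD1 at -0.28. With the replicate block alone PAX7 was at -0.0069, MYF6 at -0.072 and MYOD1 at -0.18, and 433 genes had an unadjusted p under 0.05 in place of 498. The deviations of libraries of the same number had r from -0.246 to 0.372, and 1 of 6 Laiwu libraries correlated best with its own number. These correlations were not tested and cannot show whether the numbers pair libraries. The log2 ratio difference ran from -0.22 to 0.058 for MYOG to MYOD1, from -0.21 to 0.034 for MEF2C to MEF2A, from -0.16 to 0.36 for MYF5 to PAX7, from 0.038 to 0.38 for MYF6 to MYOG and from -0.38 to -0.15 for MEF2D to MEF2A. The relation of MEF2A and MEF2C ran from -0.049 to 0.32, MEF2C and MEF2D from -0.12 to 0.34, MYF5 and PAX7 from -0.30 to 0.40, MYF6 and MYOG from -0.13 to 0.26 and MYOD1 and MYH7 from -0.30 to 0.10. Without removal of breed means MYOD1 and MYH7 gave 0.027, and with the length trend removed MEF2A and MEF2C gave -0.0045 and MEF2C and MEF2D -0.052. The MYF6 share was 51.3% with the counts of the deposited loci divided by RefSeq spans. The causes of these changes were not tested. MYF5 had the fewest counts, 27 to 88 per library.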

Other observations

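Chosen after its values were seen, TRIM63, which encodes the ubiquitin ligase MuRF1 of muscle atrophy, was the third closest gene to MYF6 (r = 0.957 over 12 libraries, breed means removed). TRIM63 stood at 266.0 FPKM in Yorkshire 3, 233.0 in Yorkshire 5, 221.5 in Laiwu 5 and 183.5 in Laiwu 3, and at 111.6 FPKM or less in the other 8 libraries. These 4 libraries also had the highest MYF6, from 108.3 to 177.9 FPKM. TRIM63 and DEPP1 were picked for their r with MYF6 over these 12 libraries, so sharing its highest libraries follows from that choice. DEPP1 was highest in the same 4 libraries, from 0.766 to 1.91 FPKM. PDK4, a fasting-responsive kinase gene that was also chosen after its values were seen, stood between 64.6 and 155.7 FPKM in them, but Laiwu 1 and Yorkshire 6 also had 96.3 and 83.1 FPKM of it. Both breeds supplied 2 of these 4 libraries.

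MYH3 was lowest in Yorkshire 5 and Yorkshire 3, at 24.1 and 32.1 FPKM, the pair of libraries in which MYF6 was highest, and it stood at 54.7 FPKM or more in the other 10.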
